A study of Mus musculus with 12 samples.

Results

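The memory, stemness, and lymph node homing genes described here are Tcf7, Lef1, Bach2, Satb1, Id3, Il7r, Klf2, S1pr1, and Ccr7. They were taken by symbol from the count table of liver-infiltrating donor T cells, which lists 25078 genes, so that they are 9 genes of 25078. In the deposited mm10 annotation Tcf7 lies at chr11:52252283-52283014, Lef1 at chr3:131110297-131224357, Bach2 at chr4:32417435-32586108, Satb1 at chr17:51736187-51833290, and Id3 at chr4:136143822-136145392. Il7r lies at chr15:9506159-9529876, Klf2 at chr8:72319062-72321654, S1pr1 at chr3:115710433-115715055, and Ccr7 at chr11:99144199-99155077. Lethally irradiated BALB/c mice received T cell-depleted bone marrow from WT C57BL/6 mice together with CD90.2+ T cells, and on day 6 after hematopoietic cell transplantation (HCT) the donor cells of the liver (H-2Kb+TCRβ+) were sorted into CD4+ and CD8+ T cells. The T cells came from WT C57BL/6 mice, from mice with floxed Stat3 alleles and CD4-Cre (STAT3ko), or from mice that carried the same alleles on a germline PD-1-/- background (STAT3ko PD-1ko). There were 2 libraries in each of the 6 groups (3 genotypes in 2 subsets), and each library combined the liver lymphocytes of 3 recipients. The labels give all recipients as WT, and all were allogeneic hosts with WT marrow. CD4-Cre deletes in the thymus in both subsets, whereas the PD-1 deletion is germline. No group lacked PD-1 alone, so the comparison of STAT3ko PD-1ko with WT T cells cannot separate the alleles. Library totals ranged from 21676125 to 24551477 counts, with a median of 23442480.

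TCF-1 (encoded by Tcf7) and LEF-1 are HMG-box transcription factors that maintain naive, memory, and stem-like T cells, and their RNA declines as T cells become effectors. BACH2 and SATB1 hold back effector programs, ID3 binds E proteins and marks memory precursors, and the IL-7 receptor α chain (Il7r) transmits the survival signal of resting T cells. KLF2 drives transcription of S1pr1, whose product lets T cells leave tissue toward sphingosine-1-phosphate, and CCR7 guides them into lymph nodes.

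STAT factors, to which STAT3 belongs, bind palindromic sites with the core letters TTCNNNGAA. The 250 bases before the gene start, taken from RefSeq promoters (GRCm38.p6), were matched to 7 of the 9 genes (Ccr7 and S1pr1 were not analysed here). These letters were found before 2 of the 7, Bach2 and Il7r, compared with 7.02% of 32851 promoters. Both regions are shown because they hold the letters. Capitals mark TTCNNNGAA and, in Bach2, also the TCF-LEF letters CTTTGA or the reverse complement TCAAAG. The Bach2 region is chr4:32417185-32417434 on the plus strand, and the Il7r region is chr15:9529877-9530126 on the minus strand.
Bach2: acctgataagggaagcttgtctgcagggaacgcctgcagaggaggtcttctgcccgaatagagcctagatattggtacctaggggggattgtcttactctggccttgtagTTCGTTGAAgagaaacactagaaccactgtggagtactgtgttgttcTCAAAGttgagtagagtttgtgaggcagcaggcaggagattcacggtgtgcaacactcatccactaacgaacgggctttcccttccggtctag
Il7r: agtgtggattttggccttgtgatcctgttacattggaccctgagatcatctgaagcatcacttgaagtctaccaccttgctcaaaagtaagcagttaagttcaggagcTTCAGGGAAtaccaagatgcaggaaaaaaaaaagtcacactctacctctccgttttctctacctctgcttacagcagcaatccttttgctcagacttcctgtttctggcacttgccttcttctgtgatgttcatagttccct
The STAT letters began 140 bases before the start of Bach2 and 142 bases before that of Il7r. The TCF-LEF letters, found in 13.8% of promoters, lay 93 bases before the start of Bach2. RefSeq gives further starts for Tcf7, Lef1, and Satb1, which are among the 32851 promoters, and the TCF-LEF letters lay before another start of Lef1; the counts here use the start of the deposited gene. The KLF letters CACCC or GGGTG, found in 52.0% of promoters, lay before 5 of the 7 genes (Tcf7, Lef1, Klf2, Id3, and Satb1), and the FOXO letters GTAAACA or TGTTTAC, found in 3.17%, before none. The Tcf7 window, counted here with its KLF letters, holds coding sequence of a longer transcript and is not wholly upstream of all Tcf7 transcripts. A match of letters is a description of the sequence and not evidence of binding.

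The labels were checked on the deleted genes. Stat3 stood at 362 and 466 CPM (counts scaled to library size by TMM within a subset) in WT CD4+ libraries, 138 and 164 in STAT3ko, and 157 and 222 in STAT3ko PD-1ko. In CD8+ libraries it stood at 396 and 387 in WT, 148 and 136 in STAT3ko, and 154 and 238 in STAT3ko PD-1ko. All libraries with the floxed alleles were thus below the WT libraries, with reads of Stat3 left in each of them; the counts cover the whole gene and do not separate its deleted exons. In STAT3ko against WT the log2 fold change of Stat3 was -1.46 ± 0.22 SE in CD4+ and -1.46 ± 0.20 in CD8+ T cells (edgeR, adjusted p = 0.055 and 0.108). Pdcd1, which encodes PD-1, stood at 55.1 and 26.3 CPM in STAT3ko PD-1ko CD4+ libraries against 235 to 323 in the other CD4+ libraries. CD8+ libraries had it at 94.0 and 66.5 against 309.7 to 458.

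Cd4 ranged from 1256 to 1888 CPM in CD4+ libraries and from 0.355 to 2.78 in CD8+ libraries, whereas Cd8a ranged from 0.417 to 5.70 and from 597 to 1349. These markers also moved with the genotype. Cd4 stood at 1322 and 1256 CPM in STAT3ko PD-1ko CD4+ libraries against 1669 to 1888 in the other CD4+ libraries, and Cd8a at 597 and 598 in STAT3ko PD-1ko CD8+ libraries against 1018 to 1349. The sum of 7 T cell markers, of which Thy1 was highest, was 4678 and 4769 against 5069 to 5576 CPM in CD4+ and 4168 and 4274 against 5010 to 5513 CPM in CD8+ libraries. Markers of other cell types were low, and hemoglobin genes were at 0 in all libraries. Summed over 6 genes, B cell markers did not exceed 14.9 CPM (mostly Cd79b, with Ms4a1 at 0; in CD8+ T cells 10.9 and 14.9 in WT against 5.67 and 6.52 in STAT3ko PD-1ko), dendritic cell markers 1.73, and, over 7 genes, hepatocyte markers 4.35. The 4 NK cell markers summed to 10.4 to 18.7 CPM in CD4+ and 11.4 to 56.7 in CD8+ libraries, nearly all Klrb1c, and in CD8+ T cells the sum was 48.9 and 56.7 in WT against 11.4 and 23.03 in STAT3ko PD-1ko. Klra4 and Klra8 were at 0 in all libraries. Endothelial markers summed to 111 to 195 CPM, nearly all Pecam1, which T cells also express. The sum of 6 myeloid markers moved with the genotype: it was 55.3 and 67.0 CPM in WT CD4+ libraries and 18.4 to 20.7 in STAT3ko PD-1ko, and in CD8+ libraries 97.5 and 99.4 against 25.2 and 25.6. STAT3ko libraries had 45.4 and 55.2 CPM in CD4+ and 81.2 and 101 in CD8+ T cells. Itgam, their most abundant gene on average, stood at 46.8 and 55.2 CPM in WT against 11.97 and 7.27 in STAT3ko PD-1ko CD4+ libraries, and at 68.1 and 67.2 against 8.08 and 6.59 in CD8+ libraries. The other 5 genes summed to 8.49 and 11.9 against 8.77 and 11.1 CPM in CD4+ libraries, which overlapped, and to 29.5 and 32.2 against 17.1 and 19.1 in CD8+ libraries, and S100a8 or Adgre1 was at 0 in some libraries. The part of these and of the T cell markers in the results on the 9 genes was not tested.

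Compared per exon length, as deposited RPKM values, the 9 genes covered a wide range of levels. In WT CD4+ T cells Il7r was highest at 253 ± 20.7 RPKM (SD, n = 2), followed by S1pr1 (152 ± 28.04), Klf2 (117 ± 11.2), Satb1 (75.8 ± 11.7), Tcf7 (59.3 ± 14.7), and Lef1 (43.0 ± 5.07). Ccr7 (4.33 ± 1.25), Id3 (3.47 ± 1.32), and Bach2 (1.56 ± 0.226) were far lower. Neighbors in this order overlapped only between Satb1 and Tcf7 and between Ccr7 and Id3. In WT CD8+ T cells S1pr1 (100.4 ± 28.3 RPKM), Klf2 (100.4 ± 32.5), and Il7r (75.7 ± 26.7) overlapped at the top. Tcf7 was at 10.6 ± 0.827 RPKM there and Bach2 again lowest at 0.478 ± 0.0899. In STAT3ko PD-1ko CD4+ T cells Tcf7 had moved to 8.04 ± 1.78 RPKM, below Lef1 (33.6 ± 1.09) and Satb1 (32.0 ± 0.364), and Id3 was lowest at 0.384 ± 0.118. Id3 rested on few reads, with 5 to 98 counts per library.

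**Figure D1:**
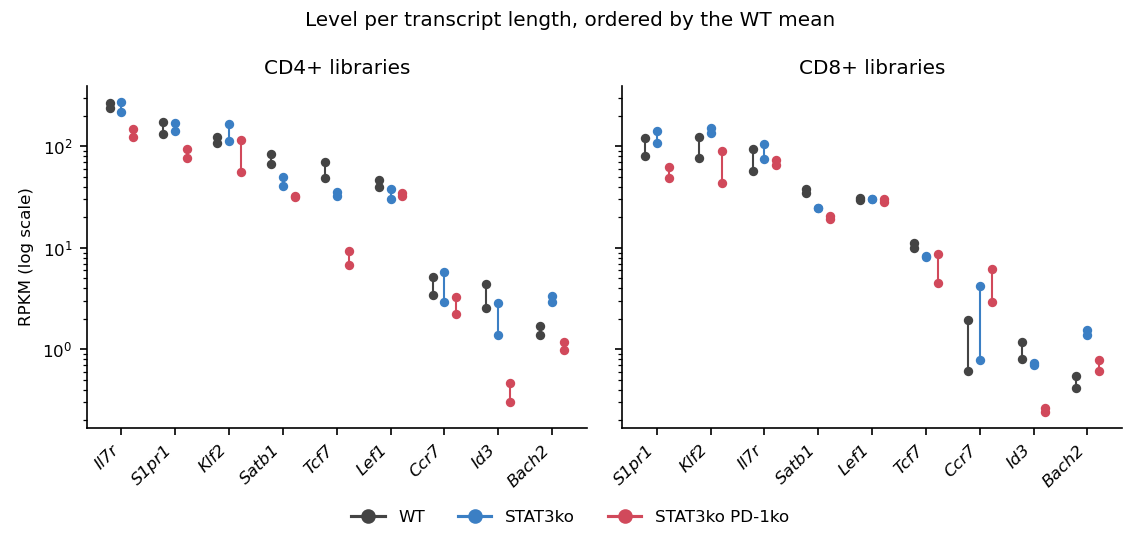
RPKM (log scale) of the 9 genes in CD4+ (left) and CD8+ (right) libraries, ordered by the WT mean. Each point is a library and a line joins the 2 libraries of a genotype. Tcf7 of CD4+ T cells drops from 59.3 in WT to 8.04 RPKM in STAT3ko PD-1ko, whereas Lef1 stays between 30.2 and 46.6 RPKM in CD4+ libraries.

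There were 2 questions asked of each gene: whether it changed with STAT3 deletion, and whether it changed further when PD-1 was absent too. The counts were fitted with edgeR, and changed means here an adjusted p under 0.05 in its quasi-likelihood test (Benjamini-Hochberg, over all genes tested). All 9 genes passed the filter on low counts in both subsets. As compared with WT, STAT3ko T cells had 0 of the 9 changed in either subset, where 0.334% of all genes tested changed in CD4+ and 0.0583% in CD8+ T cells. At an unadjusted p under 0.05 there were 3 in CD4+ and 2 in CD8+ T cells, beside 1259 of 11959 and 1315 of 12002 genes tested. With DESeq2 there were 2 in each (Bach2 higher, Satb1 lower), beside 264 and 201 of all genes, and with the replicate number as a block 3 in CD4+ T cells (Bach2 higher, Tcf7 and Satb1 lower), beside 303. As compared with WT, STAT3ko PD-1ko CD4+ T cells had 5 of the 9 lower and 0 higher, where 12.9% of all genes changed and 5.65% were lower. These 5 were Tcf7, Id3, Satb1, Il7r, and S1pr1. In STAT3ko PD-1ko CD8+ T cells 3 of the 9 were lower (Satb1, Id3, and S1pr1), where 17.2% of all genes changed and 8.21% were lower.

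The STAT3ko PD-1ko and STAT3ko T cells differ by the PD-1 alleles, and their recipients differed in disease. The study reports severe acute graft-versus-host disease from WT T cells and mild, reversible disease from STAT3ko T cells. For STAT3ko PD-1ko T cells it reports lethal disease with severe liver damage. Comparing STAT3ko PD-1ko with STAT3ko T cells therefore cannot tell the alleles from the disease of the recipients. In this comparison 5 of the 9 genes were lower in CD4+ T cells (Tcf7, Id3, Bach2, Il7r, and S1pr1), where 11.1% of all genes changed and 5.03% were lower. In CD8+ T cells 2 were lower (S1pr1 and Bach2), where 16.8% changed and 8.05% were lower. The median log2 fold change of the 9 was -0.84 against WT and -0.89 against STAT3ko in CD4+ T cells, beside -0.01 and -0.01 over all genes tested. For CD8+ T cells it was -0.60 and -0.40, beside 0.00 and 0.00. The comparisons against WT and against STAT3ko share the STAT3ko PD-1ko libraries. For any gene taken alone, 2 libraries in each group allow no exact permutation p (2-sided) under 0.333. Bulk RNA cannot tell fewer cells that express a gene from less RNA per cell.

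**Figure D2:**
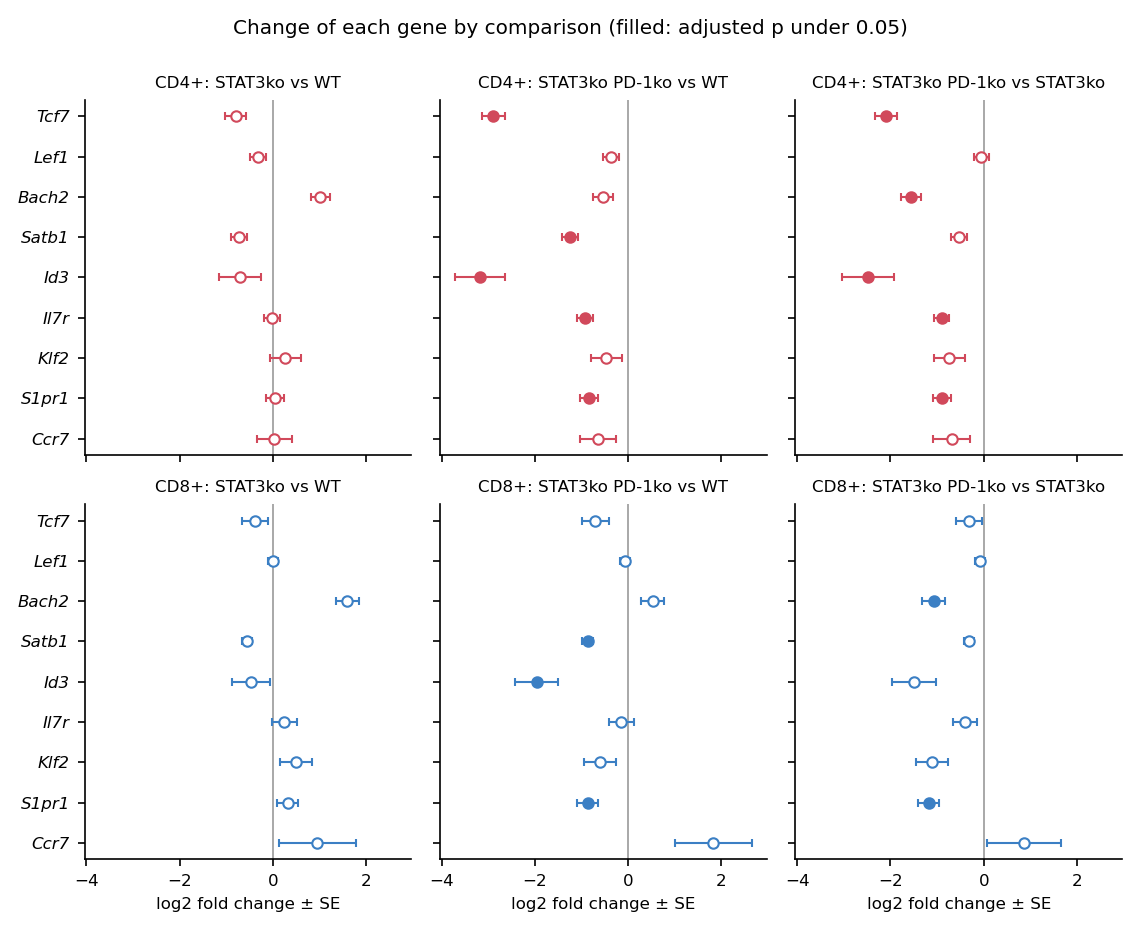
Log2 fold change with its SE for the 9 genes in the 3 genotype comparisons of CD4+ (top) and CD8+ (bottom) T cells. Filled points are changed at an adjusted p under 0.05: 0, 5, and 5 of 9 in CD4+ and 0, 3, and 2 of 9 in CD8+ T cells, all below 0.

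The count of changed genes rested on both STAT3ko PD-1ko libraries, and so did that over all genes: leaving out 1 library gave 62 to 1947 of 11959 genes against WT and 0 to 1212 against STAT3ko in CD4+ T cells, and 111 to 1908 and 2 to 1878 of 12002 in CD8+ T cells, with the lowest number each time without STAT3ko PD-1ko replicate 2. Against WT, it was 1 of 9 in CD4+ T cells without either STAT3ko PD-1ko library (Tcf7 both times) and 4 without either WT library. CD8+ T cells had 1 without STAT3ko PD-1ko replicate 1, 0 without replicate 2, and 1 and 2 without WT replicates 1 and 2. Against STAT3ko, it was 0 of 9 in CD4+ T cells without either STAT3ko PD-1ko library and 3 without STAT3ko replicate 2. CD8+ T cells had 1, 0, 1, and 1 without STAT3ko PD-1ko replicates 1 and 2 and STAT3ko replicates 1 and 2, and 3 without either WT library. In such a fit the group with 1 library is assumed to vary like the other groups. The log2 fold changes themselves stayed below 0: in CD4+ T cells against STAT3ko, that of Tcf7 ranged from -2.36 to -1.89, that of Bach2 from -1.70 to -1.44, and that of Il7r from -1.07 to -0.73, and Satb1 against WT ranged from -1.41 to -1.10.

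Of the 9 genes, Tcf7 fell most after the scarce Id3 in STAT3ko PD-1ko CD4+ T cells, against WT and against STAT3ko. Its level in CD4+ T cells was 131 and 188 CPM in WT, 88.0 and 96.4 in STAT3ko, and 18.0 and 24.9 in STAT3ko PD-1ko libraries. The genotypes did not overlap, and both STAT3ko PD-1ko libraries lay far below all others. Tcf7 was 7.43-fold lower in STAT3ko PD-1ko than in WT CD4+ T cells (log2 fold change -2.89 ± 0.24 SE, adjusted p = 0.00208, edgeR) and 4.29-fold lower than in STAT3ko (-2.10 ± 0.24, adjusted p = 0.00693). The difference between STAT3ko and WT was -0.79 ± 0.23 (adjusted p = 0.25), and passed with the replicate number as a block (-0.77, adjusted p = 0.0311). The call against STAT3ko was lost without either STAT3ko PD-1ko library (highest adjusted p 0.0804). Against WT, Tcf7 was changed under every alternative run, with values from -3.15 to -2.63. In CD8+ T cells Tcf7 was low already in WT, at 26.8 and 30.4 CPM, and stood at 21.99 and 21.87 in STAT3ko and 11.98 and 23.2 in STAT3ko PD-1ko. Both mutant genotypes lay below WT but overlapped each other, and no CD8+ comparison passed (-0.70 ± 0.28 for STAT3ko PD-1ko against WT, adjusted p = 0.128).

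Lef1, the paralog of Tcf7 that binds the same DNA letters, did not follow it. Its level in CD4+ T cells was 143 and 169 CPM in WT, 111 and 139 in STAT3ko, and 123 and 119 in STAT3ko PD-1ko libraries. In CD8+ T cells it was 111 and 109 CPM in WT, 109.8 and 112 in STAT3ko, and 102 and 109 in STAT3ko PD-1ko. WT libraries were the highest of the CD4+ libraries, and in CD8+ T cells WT and STAT3ko overlapped. Its log2 fold change between STAT3ko PD-1ko and WT was -0.37 ± 0.17 in CD4+ (adjusted p = 0.202) and -0.07 ± 0.11 in CD8+ T cells (adjusted p = 0.713).

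Bach2, a repressor that restrains effector differentiation, had its highest level in STAT3ko T cells of both subsets. In CD4+ libraries it stood at 11.6 and 14.4 CPM in WT, 24.4 and 28.3 in STAT3ko, and 8.13 and 9.76 in STAT3ko PD-1ko. Among CD8+ libraries it was at 3.46 and 4.59 CPM in WT, 11.4 and 13.1 in STAT3ko, and 5.01 and 6.59 in STAT3ko PD-1ko. The genotypes did not overlap in either subset, and STAT3ko PD-1ko lay below WT in CD4+ but above it in CD8+ T cells. The rise in STAT3ko over WT was 1.02 ± 0.21 on the log2 scale in CD4+ and 1.60 ± 0.25 in CD8+ T cells, and neither passed (adjusted p = 0.131 and 0.123). With DESeq2 both passed (adjusted p = 0.00203 and 2.62e-05), as they did in 1 fit of the 12 libraries (0.0443 and 0.0238). With the replicate number as a block the CD4+ rise passed (0.0202), and so did the CD4+ fall of STAT3ko PD-1ko against WT (-0.54, adjusted p = 0.0423). Over all alternatives the adjusted p ranged from 0.00203 to 0.35 in CD4+ and from 2.62e-05 to 0.427 in CD8+ T cells.

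When PD-1 was absent too, Bach2 fell. It was 2.95-fold lower in STAT3ko PD-1ko than in STAT3ko CD4+ T cells (-1.56 ± 0.21, adjusted p = 0.00919) and 2.10-fold lower in CD8+ T cells (-1.07 ± 0.24, adjusted p = 0.0275). The calls were lost without either STAT3ko PD-1ko library and, in CD8+ T cells, also without either STAT3ko library. An antisense gene that overlaps Bach2, Bach2os, had at most 1 count in a library.

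Satb1, a chromatin organizer that is high in naive T cells, stepped down from WT to STAT3ko to STAT3ko PD-1ko. In CD4+ libraries it stood at 465 and 582 CPM in WT, 284 and 351 in STAT3ko, and 216 and 222 in STAT3ko PD-1ko. In CD8+ libraries it stood at 239.9 and 265 CPM in WT, 169 and 174 in STAT3ko, and 133 and 143 in STAT3ko PD-1ko. The 3 genotypes did not overlap in either subset. Between STAT3ko PD-1ko and WT it fell 2.39-fold in CD4+ (-1.26 ± 0.17, adjusted p = 0.00692) and 1.83-fold in CD8+ T cells (-0.87 ± 0.11, adjusted p = 0.00592). The single steps did not pass in the fit of 6 libraries: STAT3ko against WT gave -0.72 ± 0.17 and -0.55 ± 0.11 (adjusted p = 0.184 and 0.213), and STAT3ko PD-1ko against STAT3ko gave -0.53 ± 0.17 and -0.32 ± 0.11 (adjusted p = 0.0869 and 0.0943). All 4 passed with DESeq2 (adjusted p = 0.0133, 0.00172, 0.0334, and 0.0389), and both CD4+ steps also passed in edgeR's fit of 12 libraries and with the replicate number as a block (adjusted p = 0.0256 and 0.0166). The call against WT was lost without either STAT3ko PD-1ko library in CD4+ T cells (highest adjusted p 0.0822) and without replicate 2 in CD8+ T cells (0.054).

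Id3, an inhibitor of E proteins, was scarce. In CD4+ libraries it stood at 2.37 and 4.14 CPM in WT, 1.30 and 2.71 in STAT3ko, and 0.432 and 0.281 in STAT3ko PD-1ko. CD8+ libraries had it at 1.11 and 0.764 CPM in WT, 0.687 and 0.659 in STAT3ko, and 0.222 and 0.249 in STAT3ko PD-1ko. The STAT3ko PD-1ko libraries, with 5 to 10 counts each, were the lowest in both subsets and overlapped no other genotype. Id3 fell between STAT3ko PD-1ko and WT by 3.18 ± 0.54 on the log2 scale in CD4+ (adjusted p = 0.012) and by 1.96 ± 0.46 in CD8+ T cells (adjusted p = 0.0299). Against STAT3ko it fell by 2.48 ± 0.55 in CD4+ T cells (adjusted p = 0.033), and the difference in CD8+ T cells was -1.49 ± 0.48 (adjusted p = 0.071). The CD8+ difference from STAT3ko passed on log2(RPKM + 1) values (limma, adjusted p = 0.0391). On log2(RPKM + 1) values, a scale that understates changes of low genes, the falls against WT were -1.66 and -0.66. The calls were fragile. The CD8+ fall against WT was lost with DESeq2 (adjusted p = 0.0723) and without any 1 of 5 libraries (all but STAT3ko replicate 2). The CD4+ falls were lost without either STAT3ko PD-1ko library and, against STAT3ko, without STAT3ko replicate 2 and on log2(RPKM + 1) values.

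**Figure D3:**
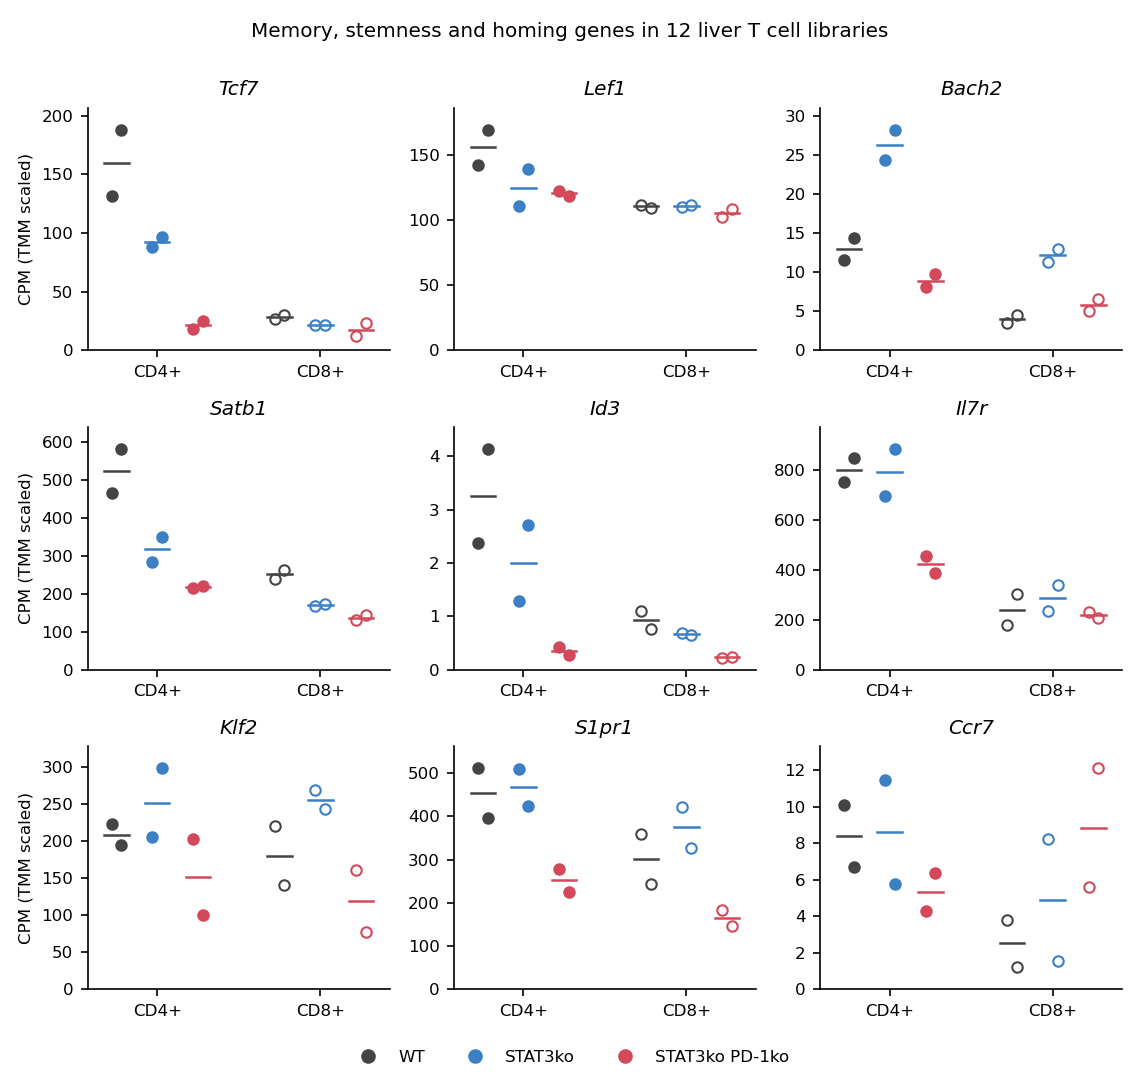
TMM-scaled CPM of each gene in the 12 libraries, with 1 point per library (filled for CD4+, open for CD8+) and a bar at the mean of 2; each vertical axis starts at 0. Tcf7, Id3, Il7r, and S1pr1 of STAT3ko PD-1ko CD4+ T cells lie below the other CD4+ libraries, and Bach2 is highest in STAT3ko in both subsets.

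Il7r, the receptor for the survival cytokine IL-7, was the most abundant of the 9 in CD4+ T cells. It stood at 749.7 and 846 CPM in WT, 696 and 882 in STAT3ko, and 457 and 387 in STAT3ko PD-1ko CD4+ libraries. WT and STAT3ko overlapped, and both STAT3ko PD-1ko libraries lay below them. Il7r was 1.89-fold lower in STAT3ko PD-1ko than in WT (-0.92 ± 0.17, adjusted p = 0.0159) and 1.87-fold lower than in STAT3ko CD4+ T cells (-0.90 ± 0.17, adjusted p = 0.0219). Among CD8+ libraries it was at 179 and 303 CPM in WT, 235 and 339 in STAT3ko, and 229 and 206 in STAT3ko PD-1ko. Both mutant genotypes overlapped WT, STAT3ko PD-1ko lay below STAT3ko, and the difference between STAT3ko PD-1ko and WT was -0.15 ± 0.26 (adjusted p = 0.738). The CD4+ calls were lost without either STAT3ko PD-1ko library and without WT replicate 2 or STAT3ko replicate 2, respectively (highest adjusted p 0.144 and 0.195).

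S1pr1, the exit receptor, was lower in STAT3ko PD-1ko T cells of both subsets. In CD4+ libraries it stood at 511 and 396 CPM in WT, 511 and 424 in STAT3ko, and 279 and 226 in STAT3ko PD-1ko. In CD8+ libraries it stood at 359 and 243 CPM in WT, 422 and 327 in STAT3ko, and 184 and 146 in STAT3ko PD-1ko. WT and STAT3ko overlapped in each subset, and STAT3ko PD-1ko lay below both. Between STAT3ko PD-1ko and WT, S1pr1 fell 1.79-fold in CD4+ (-0.84 ± 0.19, adjusted p = 0.0294) and 1.82-fold in CD8+ T cells (-0.87 ± 0.22, adjusted p = 0.0383). Between STAT3ko PD-1ko and STAT3ko it fell 1.85-fold (-0.89 ± 0.19, adjusted p = 0.0306) and 2.27-fold (-1.18 ± 0.22, adjusted p = 0.0174). These calls were lost without either STAT3ko PD-1ko library, and that against CD8+ WT also on log2(RPKM + 1) values (adjusted p = 0.0597). Those against WT were also lost without WT replicate 1, and that against CD4+ STAT3ko without STAT3ko replicate 1.

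Klf2, the transcription factor upstream of S1pr1, varied more between libraries of a genotype. In CD4+ libraries it stood at 222 and 195 CPM in WT, 205 and 298 in STAT3ko, and 202 and 99.4 in STAT3ko PD-1ko. CD8+ libraries had it at 220.2 and 140.1 CPM in WT, 268 and 243 in STAT3ko, and 160.3 and 77.2 in STAT3ko PD-1ko. STAT3ko CD8+ libraries were above the other CD8+ libraries, whereas WT and STAT3ko PD-1ko overlapped in both subsets. No Klf2 comparison passed. The lowest adjusted p was that of STAT3ko PD-1ko against STAT3ko CD8+ T cells (-1.10 ± 0.34, adjusted p = 0.0665), which ranged from 0.0112 (replicate number as a block) to 0.248 over the alternatives.

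Ccr7, the lymph node homing receptor, was low and unsteady. In CD4+ libraries it stood at 10.1 and 6.71 CPM in WT, 11.5 and 5.78 in STAT3ko, and 4.28 and 6.39 in STAT3ko PD-1ko. Among CD8+ libraries it was at 3.82 and 1.21 CPM in WT, 8.20 and 1.52 in STAT3ko, and 5.59 and 12.1 in STAT3ko PD-1ko. In CD4+ T cells STAT3ko PD-1ko was below WT and overlapped STAT3ko, and in CD8+ T cells it was above WT. Neither difference from WT passed (-0.65 ± 0.39 in CD4+ and 1.82 ± 0.82 in CD8+ T cells, adjusted p = 0.318 and 0.167). The CD8+ rise passed with only the 4 libraries compared (adjusted p = 0.046) and without either STAT3ko library (lowest adjusted p 0.0453).

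All 9 genes had a lower estimate in WT CD8+ than in WT CD4+ T cells in 1 fit of the 12 libraries, and 6 of the 9 passed, where 10.5% of all genes changed and 5.59% were lower. The median of the 9 was -1.71 on the log2 scale, beside 0.00 over all genes tested. Tcf7 was 5.64-fold lower in CD8+ T cells (-2.50 ± 0.28, adjusted p = 0.000461), Il7r 3.36-fold (-1.75 ± 0.25, adjusted p = 0.00172), and Bach2 3.26-fold (-1.71 ± 0.22, adjusted p = 0.000893). Id3 was lower by a log2 fold change of -1.81 ± 0.43 (adjusted p = 0.0227), Satb1 by -1.07 ± 0.14 (adjusted p = 0.000919), and Lef1 by -0.52 ± 0.13 (adjusted p = 0.0325). S1pr1 (-0.61 ± 0.24) and Ccr7 (-1.77 ± 0.76) did not pass (adjusted p = 0.15 and 0.201), and Klf2 was at -0.23 ± 0.39. CD4+ and CD8+ T cells of a genotype came from the same livers, and with these pools as a block S1pr1 and Ccr7 passed too (adjusted p = 0.000901 and 0.00647). Lef1 lost its call in 9 of the 12 fits that left out a library, and Id3 in 3.

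Whether a genotype changed the 9 genes differently in CD8+ and CD4+ T cells was tested as an interaction, the CD8+ minus the CD4+ log2 fold change. In the main edgeR fit, with its filter and without a block, 0 of the 9 passed in any of the 3 comparisons. Over all genes 0% passed for STAT3ko against WT, 0.00811% for STAT3ko PD-1ko against WT, and 0% for STAT3ko PD-1ko against STAT3ko. At an unadjusted p under 0.05 there were 0, 4, and 1 of the 9, beside 228, 547, and 443 of 12334 genes. Tcf7 came nearest in the main edgeR fit. Its fall against WT was smaller in CD8+ T cells by 2.20 ± 0.39 on the log2 scale (adjusted p = 0.122), and against STAT3ko by 1.79 ± 0.39 (adjusted p = 0.544). With the liver pools as a block the first was 2.14 (adjusted p = 0.00513) and the second 1.75 (adjusted p = 0.026), and both passed with DESeq2 (4.48e-05 and 0.00659). For Bach2 the interaction against WT was 1.08 ± 0.30 (adjusted p = 0.44) and passed with the block (0.0392). For S1pr1 it was -0.01 ± 0.33 (adjusted p = 1). The Tcf7 interactions against WT and against STAT3ko also passed with no filter beyond 1 count. Whether a difference between the subsets in the response of Tcf7 passed therefore depended on the fit, its filter included.

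Of 22 other naive, memory, and stem-like T cell genes, 3 rose and 8 fell in STAT3ko PD-1ko as compared with WT CD4+ T cells, and 2 of 21 rose and 6 fell in CD8+ T cells. The median log2 fold change of this list was -0.48 and -0.37, beside -0.01 and 0.00 over all genes tested, of which 7.21% and 9.01% rose and 5.65% and 8.21% fell. Nsg2 fell by 3.35 ± 0.20 in CD4+ T cells (adjusted p = 0.00108). Bcl2, the survival factor downstream of IL-7, fell by 1.29 ± 0.14 in CD4+ (adjusted p = 0.00414) and by 1.36 ± 0.13 in CD8+ T cells (adjusted p = 0.00259). In CD8+ T cells Klf3 fell by 1.34 ± 0.28 (adjusted p = 0.0197).

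Among members of this list that rose were Myb, a transcription factor of stem-like T cells, by 1.32 ± 0.18 in CD4+ (adjusted p = 0.00635) and 0.79 ± 0.19 in CD8+ T cells (adjusted p = 0.029), and Actn1 by 0.91 ± 0.14 in CD4+ T cells (adjusted p = 0.00891). The scarcer Eomes, a T-box factor of memory and effector T cells, rose by 1.40 ± 0.26 in CD4+ (adjusted p = 0.0158) and Dapl1 by 2.44 ± 0.38 in CD8+ T cells (adjusted p = 0.00929). Myb stood at 41.4 and 34.9 CPM in WT, 50.1 and 39.8 in STAT3ko, and 96.0 and 94.2 in STAT3ko PD-1ko CD4+ libraries, so that the last did not overlap the others. In STAT3ko against WT, 1 gene of all 7 lists changed: Cxcr5, the B cell follicle homing receptor, at 9.07 and 12.2 CPM in WT and 2.88 and 2.85 in STAT3ko CD4+ libraries (-1.90 ± 0.26, adjusted p = 0.0413).

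Genes of effector differentiation did not rise as a group. In STAT3ko PD-1ko against WT, 1 of 14 rose and 2 fell in CD4+ and 0 rose and 4 fell in CD8+ T cells, with a median of -0.43 and -0.37, where 7.21% and 9.01% of all genes rose and 5.65% and 8.21% fell. Prf1 (perforin) rose by 0.84 ± 0.22 in CD4+ T cells (adjusted p = 0.0435), whereas Gzma (granzyme A) fell by 1.63 ± 0.24 in CD4+ (adjusted p = 0.00834) and by 2.00 ± 0.16 in CD8+ T cells (adjusted p = 0.00224). Id2, the effector counterpart of Id3, fell by 1.24 ± 0.15 (adjusted p = 0.0053) and by 1.38 ± 0.25 (adjusted p = 0.0135). Id2 stood at 872 and 1112 CPM in WT, 646 and 655 in STAT3ko, and 411 and 427 in STAT3ko PD-1ko CD4+ libraries, without overlap.

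Of 10 tissue retention genes, whose products hold T cells in place, 5 of CD4+ and 7 of CD8+ T cells fell in STAT3ko PD-1ko against WT, and 0 rose. Over all genes tested, 5.65% and 8.21% fell. The median of the list was -1.64 and -1.46, and Cd69, Rgs1, and Rgs2 did not pass in either subset. Itga1, the collagen-binding integrin CD49a, fell by 1.90 ± 0.20 (adjusted p = 0.00368) and by 2.12 ± 0.12 (adjusted p = 0.000901).

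Cofactors of TCF-1 and LEF-1 and Wnt pathway genes changed against WT at about the rate of all genes. In STAT3ko PD-1ko against WT, 1 of 13 rose (Tle1) and 1 fell (Axin2) in CD4+ T cells, and 1 of 14 rose and 2 fell in CD8+ T cells, with a median of -0.16 and -0.19; over all genes tested, 12.9% and 17.2% changed. Axin2, a target of TCF-LEF factors, stood at 45.1 and 60.4 CPM in WT, 32.0 and 49.5 in STAT3ko, and 16.0 and 8.28 in STAT3ko PD-1ko CD4+ libraries. Only the last stood apart from WT without overlap, and Axin2 fell by 2.12 ± 0.35 in CD4+ (adjusted p = 0.0111) and by 1.52 ± 0.25 in CD8+ T cells (adjusted p = 0.0111). In CD8+ T cells Bcl9l, a β-catenin cofactor, fell by 0.99 ± 0.11 (adjusted p = 0.00411), and the corepressor Tle1 rose by 1.13 ± 0.18 (adjusted p = 0.0106). Of 4 E proteins and ID proteins other than Id3, 2 fell in CD4+ (Id2 and Tcf12) and 1 in CD8+ T cells (Id2), with a median of -0.89 in both. Tcf12 fell by 0.75 ± 0.14 in CD4+ T cells (adjusted p = 0.0181).

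Among partners of the IL-7 receptor, 5 of 8 fell in CD4+ and 6 of 8 in CD8+ T cells and 0 rose, with a median of -0.62 and -0.67, where 5.65% and 8.21% of all genes fell. Cish, a feedback target of STAT5, fell by 1.46 ± 0.21 (adjusted p = 0.00766) and by 1.25 ± 0.20 (adjusted p = 0.00999), and Jak3 by 0.84 ± 0.22 (adjusted p = 0.0478) and by 0.84 ± 0.12 (adjusted p = 0.00756). Jak3 was already at -0.71 ± 0.22 and -0.72 ± 0.12 in STAT3ko against WT. Between STAT3ko PD-1ko and STAT3ko it was at -0.13 ± 0.22 and -0.12 ± 0.12, and none of these passed. Among S1P receptors and partners of CCR7 and KLF2, 1 of 10 fell in STAT3ko PD-1ko against WT CD4+ and 4 of 11 in CD8+ T cells, with a median of -0.59 and -0.61, beside the same shares. S1pr4, another S1P receptor, fell by 0.61 ± 0.11 in CD8+ T cells (adjusted p = 0.0148). Against STAT3ko in place of WT, the naive, memory, and stem-like list had 2 higher and 9 lower in CD4+ and 1 higher and 6 lower in CD8+ T cells, and the tissue retention list had 5 and 6 lower. Of all genes, 6.05% and 8.76% were higher and 5.03% and 8.05% lower in this comparison. The TCF-LEF and Wnt list had 2 higher and 3 lower of 13 in CD4+ and 2 higher and 4 lower of 14 in CD8+ T cells. The IL-7 receptor list had 2 and 3 lower, the E and ID protein list 2 and 0 lower, the effector list 1 higher and 1 lower in CD4+ and 3 lower in CD8+, and the S1P list 3 lower in CD4+ and 1 higher and 3 lower in CD8+ T cells.

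**Figure D4:**
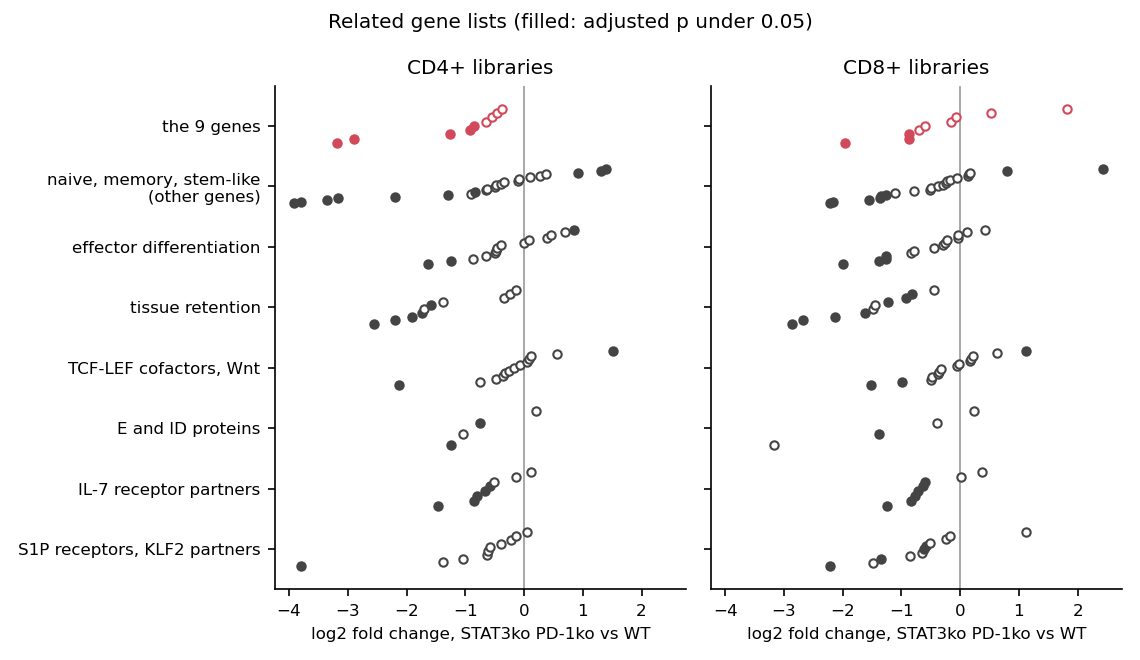
Log2 fold change of STAT3ko PD-1ko against WT for the 9 genes (red) and for each tested gene of 7 related lists, in CD4+ (left) and CD8+ (right) T cells; filled points are changed at an adjusted p under 0.05. Of the 9 genes, 5 and 3 are filled, all below 0, and tissue retention genes and IL-7 receptor partners that changed also lie below 0.

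The genes whose pattern was most like that of each of the 9 were named by Pearson's r of log2 CPM over the 12 libraries, each value taken relative to the mean of its subset. These r are descriptions, since the libraries share genotypes. For Tcf7 they were Peg13 (r = 0.973), Entpd5 (0.966), and Samd11 (0.963), and for Lef1 Fbxo31 (0.922), Sh3bp1 (0.918), and Nr2f6 (0.915). For Bach2 they were Tbc1d4 (0.919), Oasl2 (0.918), and Polr3gl (0.904), and for Satb1 Abhd8 (0.984), Zswim6 (0.977), and Castor1 (0.976). For Id3 they were Timp2 (0.978), Wdtc1 (0.973), and Mark4 (0.969), and for Il7r Rcn1 (0.962), AI597479 (0.952), and Il18r1 (0.935). For Klf2 they were Nod2 (0.973), Fbxl2 (0.964), and Arel1 (0.962), for S1pr1 Gas7 (0.989), H2-K2 (0.982), and Smcr8 (0.979), and for Ccr7 Grhl1 (0.933), Cd83 (0.911), and Htra4 (0.894). None of the 9 was among the 3 nearest of another.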

How the data were processed

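Donor T cells were sequenced as 51 bp single-end reads, and the authors mapped them with STAR to mm10, counted RefSeq genes with HTSeq-count, and normalized with edgeR. Whether counting used strand is not given in the sources used here. The deposited table holds raw counts and RPKM values per library and no fold changes. Library totals were 21676125 to 24551477 counts, so that genes with few counts (Id3) have wide errors. Counts were tested with edgeR 4.0.16 (quasi-likelihood, TMM, filterByExpr with a minimum count of 10 and total of 15) on R 4.3.3, in 1 fit of 6 libraries per subset, and in 1 fit of 12 libraries for CD8+ against CD4+ T cells and interactions. P-values were adjusted by Benjamini-Hochberg over all genes tested. SE is the log2 fold change divided by the square root of F. Alternatives were DESeq2 1.42.0, DESeq2 size factors, no filter, and limma 3.58.1 on log2(RPKM + 1). Further ones were other sets of libraries, a replicate block, and leaving out each library. Mean levels were also taken as log2(RPKM + 0.1), without a test. The scripts were tested on simulated data.

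The 9 genes and all lists were chosen with earlier results of these data known. Named were the 9 genes, Stat3 and Pdcd1, up to 2 genes per list that rose most and 2 that fell most in STAT3ko PD-1ko against WT (changed, and averaging 3 or more in log2 CPM), list genes that changed in STAT3ko against WT, and the 3 most alike genes. Tle1, Eomes, and Bcl2 of CD4+, Dapl1 of CD8+, and the retention genes that did not pass were named after their values were seen. Some genes that this rule names are not reported here. The lists of naive and memory, effector, tissue retention, TCF-LEF, E protein, IL-7 receptor, and S1P genes exclude the 9. Libraries of a group differed by more than counting noise. Sample numbers in the header run in 2 series, 1 per replicate number, and the study names 2 batches for T cell receptor libraries. For the figure that holds the liver RNA-Seq, the study says that data come from at least 2 replicate experiments. In the sources used here the replicate numbers are not tied to an experiment. The replicate number was fitted as a block as an alternative. P-values rest on the spread between libraries, estimated jointly over the groups of a fit and drawn toward that of other genes. Each library pooled 3 recipients, so the spread between mice was not measured. The study states that CD4+ and CD8+ T cells came from the same livers, and taking those of a genotype and number as 1 pool was an assumption; their deviations from the group means correlated at 0.588, 0.583, and 0.646.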

Additional observations from a re-analysis of the deposited data

How the results depend on the processing

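The 5 falls in STAT3ko PD-1ko against WT CD4+ T cells were found with each other tool, scaling, filter, and set of libraries, but with 2 libraries a group all except that of Tcf7 were lost without a STAT3ko PD-1ko library: leaving out 1 library gave 1 to 5 genes against WT and 0 to 5 against STAT3ko in CD4+ T cells, and 0 to 4 and 0 to 3 in CD8+ T cells. In STAT3ko against WT the main edgeR fit called 0 of the 9. In CD4+ T cells DESeq2 called 2, no filter 1, 12 libraries in 1 fit 2, and the replicate block 3 (Tcf7, Bach2, and Satb1). In CD8+ T cells DESeq2 called 2, no filter 1, and 12 libraries 1. For the interaction of STAT3ko PD-1ko against WT, Tcf7 passed with DESeq2, with no filter, and with the liver pools as a replicate block. Bach2 passed with that block. Against STAT3ko, Tcf7 passed with each of these alternatives. How many of all genes passed the interactions with no filter or with the block is not given here, so those calls have no share beside them. The cause of the differences between fits was not tested.

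Over all genes, 40 changed in STAT3ko against WT CD4+ T cells. They became 264 with DESeq2, 165 with no filter, 303 with the replicate block, 164 with 12 libraries, and 1 with the 4 libraries compared. Leaving out 1 library lowered the 40 in some fits and raised it in others. The 7 in CD8+ T cells became 201, 66, 20, and 0 with DESeq2, no filter, 12 libraries, and 4 libraries, and 3 with limma. The 1538 of STAT3ko PD-1ko against WT CD4+ T cells became 3104 with the block and 2462 with 12 libraries, and the 1324 against STAT3ko 2073 with DESeq2, 3105 with the block, and 2299 with 12 libraries. Leaving out 1 library lowered these counts to as few as 62 and 0 in CD4+ T cells (62 to 1947 against WT, 0 to 1212 against STAT3ko), and in CD8+ T cells gave 111 to 1908 in place of 2066 and 2 to 1878 in place of 2017. The 1294 of CD8+ against CD4+ WT T cells became 2991 with the pools as a block. Interactions, at 0, 1, and 0 genes, became 3, 75, and 19 with DESeq2. Within a subset the deviations of replicate 1 correlated at 0.63, 0.303, and 0.199 in CD4+ and 0.651, 0.16, and 0.0601 in CD8+ T cells.

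Of the fold changes of the 9 genes, 1147 kept direction and call under the alternatives, 53 lost the call, 38 gained it, and 40 turned. Those that turned were small or of low genes. Ccr7 in STAT3ko against WT CD4+ T cells was -0.016 on log2(RPKM + 1) values, and the S1pr1 interaction against WT was 0.0015 with DESeq2 size factors and 0.0034 with the block. Leaving out 1 library gave, in STAT3ko against WT CD4+ T cells, -0.54 to 0.45 for Ccr7, -0.20 to 0.14 for Il7r, -0.14 to 0.24 for S1pr1, and -0.026 to 0.51 for Klf2, and in CD8+ T cells -0.014 to 0.018 for Lef1, -0.71 to 2.00 for Ccr7, and -0.076 to 0.67 for Il7r. It gave -0.20 to 0.12 for Lef1 in STAT3ko PD-1ko against STAT3ko CD4+, -0.48 to 0.26 for Il7r against WT CD8+, -0.88 to 0.058 for Tcf7 against STAT3ko CD8+, and -0.60 to 0.050 for Klf2 of CD8+ against CD4+ WT T cells. Interactions ranged from -0.74 to 1.98 for Ccr7, -0.052 to 0.70 for Il7r, -0.044 to 0.61 for Klf2, and -0.21 to 0.85 for Id3 in STAT3ko against WT, from -0.25 to 0.31 for S1pr1 and -0.74 to 0.48 for Klf2 in STAT3ko PD-1ko against WT, and from -0.17 to 0.15 for Lef1 and -0.98 to 0.25 for Klf2 against STAT3ko.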
